A study of Mus musculus with 6 samples.

Results

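Interferon beta and 8 interferon regulatory factors (IRFs) formed a set of 9 genes, Ifnb1, Irf1, Irf2, Irf3, Irf4, Irf5, Irf7, Irf8 and Irf9, whose RNA was followed in bone marrow-derived macrophages (BMDMs) given LPS. They were taken by symbol from a gene count table of 55335 identifiers, all 9 were found, and all 9 were among the 15687 genes with enough reads to be tested. The table held 6 total RNA libraries of BMDMs from C57BL/6 mice: 3 control libraries, for which cells received PBS for 1 h, and 3 LPS libraries, for which they received LPS for the same time. The cells were grown from femur and tibia marrow for 6 days in L929-conditioned medium, and no group carried an engineered allele. The sources used here do not say whether the replicates came from separate animals, so p-values measure the spread between these libraries, which may be technical. Library totals ran from 37787611 to 41516330 counts. Levels are given as normalized CPM, which is counts scaled to a common library total and then between libraries by TMM, as mean ± SD over 3 libraries. All 8 macrophage markers examined were among the tested genes, with a summed level of 29667 to 30941 normalized CPM in control and 32403 to 32731 in LPS libraries. Most of that sum was Lyz2, whose log2 fold change was 0.06 under TMM and -0.35 with library size alone, so the order of the group sums rests on the scaling.

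LPS, a component of the outer membrane of Gram-negative bacteria, is sensed by TLR4. From endosomes the receptor signals through the adaptor TRIF and the kinase TBK1 to phosphorylate IRF3, which then enters the nucleus and acts with NF-kappaB and AP-1 factors at the enhancer beside the interferon beta gene. Secreted interferon beta binds its receptor and, through JAK kinases, leads to the assembly of ISGF3, the complex with STAT2 and IRF9 that turns on interferon-stimulated genes, Irf7 among them. Much of IRF activity is set by phosphorylation and movement into the nucleus, which RNA levels do not report.

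The promoters of 4 members are shown because they held matches to motifs of NF-kappaB, STAT or IRF factors: Ifnb1 and Irf1, which rose, Irf8, which fell, and Irf2, which did not pass the test. Irf3, with a single kB-like match, is not printed. Each sequence ends at the start site in RefSeq on GRCm38.p6 and is read 5′ to 3′ along the gene. The first 3 are the 180 bases before that site, at chr4:88522795-88522974 on the minus strand for Ifnb1, chr11:53769834-53770013 on the plus strand for Irf1 and chr8:120736178-120736357 on the plus strand for Irf8. Irf2 is given over 250 bases, at chr8:46739495-46739744 on the plus strand, since its matches reach farther up. Capitals mark IRF core and kB-like matches in Ifnb1 and interferon-gamma activated sequence (GAS) matches, the STAT dimer motif, in Irf1 and Irf8. In Irf2 they mark, in order, the joined IRF matches, a GAS match and a kB-like match.
Ifnb1: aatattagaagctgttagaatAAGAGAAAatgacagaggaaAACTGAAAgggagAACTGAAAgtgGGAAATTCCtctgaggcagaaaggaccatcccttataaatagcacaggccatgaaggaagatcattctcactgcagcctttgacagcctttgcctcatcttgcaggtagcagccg
Irf1: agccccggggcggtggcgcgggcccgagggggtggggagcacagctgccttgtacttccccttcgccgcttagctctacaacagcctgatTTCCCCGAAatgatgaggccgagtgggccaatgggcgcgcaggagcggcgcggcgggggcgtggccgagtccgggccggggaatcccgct
Irf8: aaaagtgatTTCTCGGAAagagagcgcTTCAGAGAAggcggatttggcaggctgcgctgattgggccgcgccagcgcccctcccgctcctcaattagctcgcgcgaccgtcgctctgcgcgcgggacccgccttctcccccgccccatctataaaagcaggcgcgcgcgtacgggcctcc
Irf2: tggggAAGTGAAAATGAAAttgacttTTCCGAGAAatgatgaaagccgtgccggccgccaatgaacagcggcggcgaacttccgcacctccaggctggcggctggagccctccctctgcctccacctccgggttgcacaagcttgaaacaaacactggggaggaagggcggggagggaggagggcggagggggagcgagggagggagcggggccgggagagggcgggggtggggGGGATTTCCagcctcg
The Ifnb1 window held the kB-like match GGAAATTCC at -115 to -107 from the RefSeq start site and 3 IRF cores, at -159 to -152, -139 to -132 and -126 to -119. The kB-like match and the nearer 2 cores lie in the stretch known as the virus-inducible enhancer of this gene. Irf1 held 1 GAS match, TTCCCCGAA, at -90 to -82, and Irf8 held a pair, TTCTCGGAA at -171 to -163 and TTCAGAGAA at -153 to -145.

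Over the 250 bases upstream, searched on both strands in 32817 RefSeq promoters, the kB-like letters GGNNNTTCC were present in 15.7%, the GAS letters TTCNNNGAA in 7.01%, a long IRF element GAAANNGAA in 7.12%, AP-1-like letters TGANTCA in 6.75% and the IRF core AANNGAAA in 21.3%. The IRF core was added after the Ifnb1 promoter had shown no match to the long element, and it can overlap that element. All 9 members had a promoter entry, and Irf1, Irf8 and Irf9 had 2 each. Their second entries held no match. Irf2 held the long IRF element at -241 to -233, overlapping IRF cores at -245 to -238 and -239 to -232, a GAS match at -224 to -216 and a kB-like match at -16 to -8. Irf3 held a kB-like match at -228 to -220. Irf4, Irf5, Irf7 and Irf9 held none of these letters in the window, and no member held the AP-1-like letters. The Irf9 windows, at chr14:55603735-55603984 and chr14:55604329-55604578, lay inside the gene as annotated. The bases before its annotated start at 55603571 were thus not searched. A match of this kind is a description of the sequence. Fixed letters cover only some forms of a motif, so a promoter without a match may still hold a site. The Irf1 window held ggggaatccc near its end, which the kB-like letters do not match.

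Ifnb1 went from near silence to expression, Irf1 and Irf4 rose several-fold, Irf5 and Irf3 rose by less, Irf7, Irf8 and Irf9 fell, and Irf2 did not pass the test. At an adjusted p under 0.05 from edgeR's quasi-likelihood test, 5 of the 9 rose, where 32.9% of all tested genes rose, and 3 fell, where 34.9% fell. With a log2 fold change beyond 1 in size also required (both criteria, from here on), 3 of the 9 rose (Ifnb1, Irf4 and Irf1), beside 10.5% of tested genes, and 0 fell, beside 10.4%. Ifnb1 passed the read filter only through its LPS libraries, which set the direction of its change in advance. With 10 counts required in every library Ifnb1 was left out, and 4 members rose, 2 of them past both criteria. The shares over all tested genes under that filter were not worked out. The median log2 fold change was 0.22 over the 9 genes and 0.08 over the 8 IRF genes, against -0.01 over all tested genes. Over the whole table LPS changed the make-up of the RNA so much that the scaling matters: library size alone in place of TMM moved the median of all genes by -0.405, and upper quartile scaling moved it by -0.143. With library size alone, 3 members rose, beside 15% of tested genes, and 5 fell, beside 65.9%. The 3 that rose were Ifnb1, Irf1 and Irf4. They also rose past both criteria under it, beside 7.73% of tested genes, and 1 member, Irf8, fell past both, beside 18.9%.

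**Figure D1:**
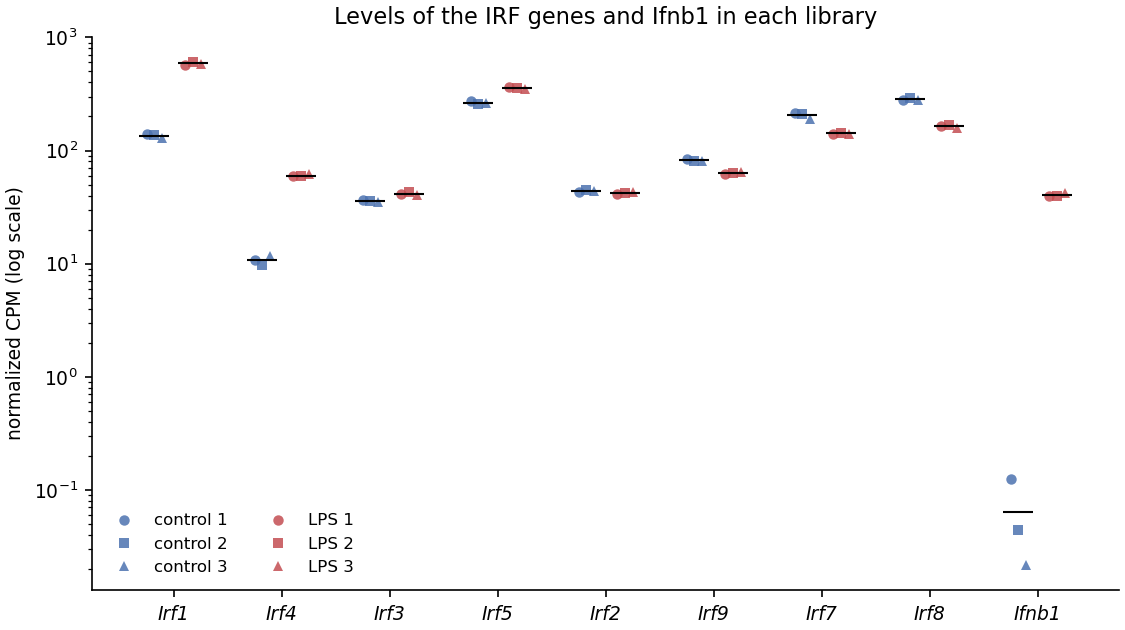
Level of each of the 9 genes in each library, on a log axis of normalized CPM, with control and LPS libraries as separate points and a bar at each group mean. Ifnb1 moved from under 0.2 to about 40 normalized CPM, Irf1 and Irf4 were higher and Irf7, Irf8 and Irf9 lower in all 3 LPS libraries, and the Irf2 points of the groups overlap.

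Ifnb1 (ENSMUSG00000048806.4) encodes interferon beta, the type I interferon that macrophages release first, and is a single exon of 750 bp at chr4:88522025-88522774 on the minus strand of GRCm38. Control replicates 1 to 3 held 6, 2 and 1 counts of it, and LPS replicates 1 to 3 held 1318, 1297 and 1447. In normalized CPM these were 0.126, 0.0443 and 0.0217 in control and 39.3, 39.7 and 42.5 in LPS libraries. Every LPS library lay far above every control library, 2 of the 3 control libraries held no more than 3 counts, and the LPS libraries stayed within a narrow band. Its mean rose from 0.064 ± 0.0549 to 40.5 ± 1.75, a log2 fold change of 9.22 (SE 0.15, adjusted p = 1.31e-19), which only 27 of the 15687 tested genes exceeded. With so few control counts the fold is held more loosely than this SE, derived from the F statistic, shows. The summed 9 control and 4062 LPS counts gave a ratio of 626, with a 95% exact interval of 329 to 1369 that covers counting error only. Control replicate 1 held most of the control counts, and the log2 fold change was 10.13 without it and 8.82 without control replicate 3.

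The other interferon genes had counts at or near zero. Of 20 type I, II and III interferon genes besides Ifnb1, 0 had enough counts to be tested, 16 had at most 3 counts in every library, and the highest count of any was 9. Summed over the 20, the control libraries held 4, 1 and 1 counts and the LPS libraries 30, 11 and 27. The counts above 3 were in Ifna1, Ifna2, Ifna4 and Ifna5, named here after their values were seen. Ifna1 was at 0 counts in all control libraries and at 9, 2 and 9 counts after LPS, and Ifna5 was at 0 in all control libraries and at 8, 1 and 5 counts after LPS. When genes were tested with no filter beyond 1 count, these 4 rose, with adjusted p from 7.47e-06 for Ifna1 to 0.0346 for Ifna2. The interferon alpha genes are near-identical copies and the handling of reads that map to several places is not given in the sources used here. Which copy a read came from is therefore uncertain. If such reads were dropped, the family is undercounted beside Ifnb1. As counted, each LPS library held at least 1297 counts of Ifnb1 and at most 30 of the 20 other genes together.

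Irf1 (ENSMUSG00000018899.16, chr11:53770014-53778374, plus strand) encodes an activator that NF-kappaB is known to induce, and that acts mainly through being newly made. Its normalized CPM was 139, 138 and 129 in control and 575, 607 and 581 in LPS libraries. The groups were far apart beside their spread. The mean rose from 135 ± 5.54 to 588 ± 17.0, a log2 fold change of 2.12 (SE 0.04, adjusted p = 8.83e-19), and 4.98% of tested genes had a higher one. Leaving out any 1 library gave 2.09 to 2.14, and library size alone gave 1.72. Its GAS match is the one in capitals in the Irf1 sequence above.

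Irf2 (ENSMUSG00000031627.9, chr8:46739732-46847458, plus strand) encodes a factor that binds the same DNA element as IRF1 and mostly represses from it. It had 42.9, 44.7 and 44.2 normalized CPM in control and 41.5, 41.9 and 43.0 in LPS libraries. LPS replicate 3 reached above control replicate 1, so the groups overlapped. The log2 fold change was -0.06 (SE 0.04, adjusted p = 0.191), but it depended on the scaling, and passed the test at -0.47 when library size alone was used and at -0.20 under upper quartile scaling. Within a library the ratio of Irf1 to Irf2 counts does not depend on scaling. It was 3.23, 3.08 and 2.91 in control and 13.9, 14.5 and 13.5 in LPS libraries, so activator transcript gained on repressor transcript in every library. The log2 ratio differed by 2.18, with an exact two-sided permutation p of 0.1, the smallest that 3 against 3 libraries allow, and the same value after adjustment over the 3 ratios examined.

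Irf4 (ENSMUSG00000021356.10, chr13:30749226-30766976, plus strand) and Irf8 (ENSMUSG00000041515.10, chr8:120736358-120756694, plus strand) encode the family members that bind DNA weakly alone and pair with PU.1. IRF8 is a lineage factor of monocytes and macrophages, and IRF4 is linked to alternative activation and to limiting TLR signalling. Irf4 had 10.8, 9.74 and 11.6 normalized CPM in control and 59.1, 59.0 and 62.1 in LPS libraries. Low at rest and higher in all LPS libraries, it rose from 10.7 ± 0.912 to 60.1 ± 1.74, a log2 fold change of 2.49 (SE 0.06, adjusted p = 2.64e-17) and the largest among the 8 IRF genes. Irf8 moved the other way, with 279, 291 and 282 normalized CPM in control and 165, 169 and 157 in LPS libraries. It fell from 284 ± 5.99 to 164 ± 6.0, a log2 fold change of -0.80 (SE 0.04, adjusted p = 6.66e-13), which was -1.20 with library size alone and then past both criteria. The groups did not overlap for either gene.

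The ratio of Irf4 to Irf8 counts was 0.0387, 0.0335 and 0.0411 in control and 0.358, 0.350 and 0.395 in LPS libraries. Irf8 counts outnumbered those of Irf4 in every library, by a smaller margin after LPS. The log2 ratio differed by 3.29, with an exact two-sided permutation p of 0.1. Both genes also mark dendritic cells, so a list of 7 dendritic cell markers was read beside them. Of these, 5 rose past both criteria (Xcr1, Zbtb46, Flt3, Ccr9 and Siglech), beside 10.5% of all tested genes, and Clec9a and Itgax did not pass the test. With library size alone 3 did so, beside 7.73%, since Ccr9 was at 0.98 and Siglech at 0.67. The summed level of the 7 was 91.5 to 101 normalized CPM in control and 108 to 110 in LPS libraries. Itgax made up most of it, at 88.8 ± 5.18 and 92.0 ± 1.33, and its log2 fold change was 0.05 under TMM and -0.35 with library size alone, so the order of the sums rests on the scaling. No marker of the list was at 0 counts throughout, although Xcr1 had only 1 or 2 counts in each control library. Xcr1 thus passed the read filter only through the LPS libraries, which set the direction of its change in advance. Zbtb46 and Flt3 were also low in control, at 0.396 and 0.899 normalized CPM. The part of dendritic cells in the Irf4 and Irf8 values was not tested. In bulk RNA, fewer cells of a type and less RNA per cell cannot be told apart.

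IRF3 and IRF7 are the pair that kinases downstream of pattern recognition receptors phosphorylate, with IRF3 present at rest and IRF7 mostly built up by interferon signalling. Irf3 (ENSMUSG00000003184.15, chr7:44997648-45002848, plus strand) had 36.4, 35.8 and 35.2 normalized CPM in control and 41.2, 42.7 and 40.8 in LPS libraries. The groups did not overlap, and the log2 fold change was 0.22 (SE 0.04, adjusted p = 0.000194), but its direction rests on the scaling, since library size alone gave -0.19 (adjusted p = 0.000464) and upper quartile scaling 0.07 (adjusted p = 0.129). Irf7 (ENSMUSG00000025498.15, chr7:141262706-141266481, minus strand) had 215, 210 and 188 normalized CPM in control and 141, 144 and 140 in LPS libraries. All LPS values lay below all control values, and the control libraries were the more spread. It fell from 204 ± 14.2 to 142 ± 2.43, a log2 fold change of -0.53 (SE 0.04, adjusted p = 4.29e-09), which was -0.93 with library size alone and -0.59 to -0.49 when any 1 library was left out.

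The ratio of Irf7 to Irf3 counts was 5.91, 5.87 and 5.35 in control and 3.41, 3.38 and 3.43 in LPS libraries. At 1 h Irf7 therefore stood lower relative to Irf3 than in control cells, whatever the scaling between libraries. The log2 ratio differed by -0.74, again with an exact two-sided permutation p of 0.1.

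Irf5 (ENSMUSG00000029771.12, chr6:29526625-29541871, plus strand) encodes a factor that works downstream of MyD88 and is linked to inflammatory cytokine genes in macrophages. It had 273, 256 and 262 normalized CPM in control and 362, 355 and 353 in LPS libraries. The groups were apart, with means of 264 ± 8.61 and 357 ± 4.76 and a log2 fold change of 0.44 (SE 0.03, adjusted p = 2.04e-09). With library size alone it was 0.03 (adjusted p = 0.392), and the raw counts overlapped, at 13014, 11584 and 12091 for control and 12161, 11596 and 12025 for LPS. Irf9 (ENSMUSG00000002325.15, chr14:55603571-55610030, plus strand), the DNA-binding subunit of ISGF3, had 83.9, 80.8 and 81.2 normalized CPM in control and 62.0, 63.0 and 64.2 in LPS libraries. All LPS values were below all control values. It fell from 82.0 ± 1.71 to 63.1 ± 1.13, a log2 fold change of -0.38 (SE 0.04, adjusted p = 3.77e-08), and was -0.78 with library size alone.

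**Figure D2:**
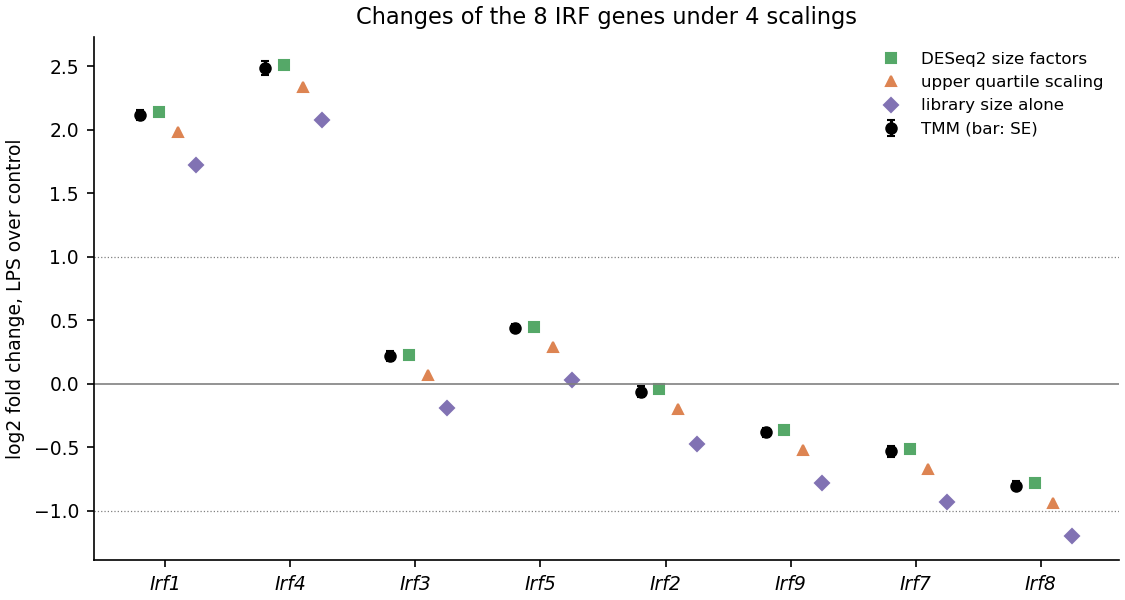
Log2 fold change of each IRF gene, LPS against control, under TMM, DESeq2 size factors, upper quartile scaling and library size alone, with SE bars on the TMM values. Irf1 and Irf4 lie above 1 and Irf7, Irf8 and Irf9 below 0 under each scaling, while Irf3 crosses 0, from 0.22 under TMM to -0.19 with library size alone.

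Some reads may belong to overlapping genes, since the strand setting of the counting is not given in the sources used here. Irf5 shares 411 of its 2905 exonic bases with Tnpo3 on the other strand, Irf3 shares 88 of 3442 with Bcl2l12, Irf7 shares 45 of 3776 with Phrf1 and Irf1 shares 135 of 3976 with Gm17334, all on the other strand. Irf9 shares 123 of 5386 with Rnf31 on its own strand. Their log2 fold changes were -0.14 for Tnpo3, -0.67 for Bcl2l12, 0.05 for Phrf1 and -0.73 for Rnf31, and Gm17334 had 3 to 12 counts in a library. The part of these overlaps in the members' values was not tested.

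Levels of different genes were compared per kb of merged exon. In control libraries the order was Irf5 (90.9 ± 2.96 normalized CPM per kb), Irf7 (54.1 ± 3.77), Irf8 (40.2 ± 0.849), Irf1 (34.0 ± 1.39), Irf9 (15.2 ± 0.318), Irf3 (10.4 ± 0.177), Irf2 (5.94 ± 0.126), Irf4 (2.18 ± 0.186) and Ifnb1 (0.0853 ± 0.0732). Neighbours in this order differed by more than their spread. After LPS the order was Irf1 (148 ± 4.26), Irf5 (123 ± 1.64), Ifnb1 (54.0 ± 2.34), Irf7 (37.5 ± 0.643), Irf8 (23.2 ± 0.851), Irf4 (12.2 ± 0.354), Irf3 (12.1 ± 0.282), Irf9 (11.7 ± 0.209) and Irf2 (5.69 ± 0.103). The neighbours Irf4 and Irf3, and Irf3 and Irf9, lay within their spread of each other. Irf1 thus moved to the head of the order, and Ifnb1 from its end to just below Irf5.

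The IRF genes together had a higher summed level in LPS libraries under TMM, with a make-up shifted toward Irf1. The size of the difference in the sum rests on the scaling. The TMM factors were 1.148 to 1.153 in control and 0.8642 to 0.8719 in LPS libraries, and the sum with library size alone was not worked out. Summed per kb over the 8 IRF genes, the level was 260, 253 and 246 normalized CPM per kb in control and 371, 379 and 369 in LPS libraries. Irf1 made up 13.4, 13.7 and 13.2% of that sum in control and 39.0, 40.3 and 39.6% in LPS libraries. Irf7 went from 21.4 ± 0.969% to 10.1 ± 0.0353% and Irf8 from 15.9 ± 0.577% to 6.21 ± 0.163%. Irf5 held 35.9 ± 0.946% and 32.9 ± 0.668%, so its share was lower after LPS although its normalized level was higher under TMM. Irf9 went from 6.02 to 3.14%, Irf3 from 4.11 to 3.24%, Irf2 from 2.35 to 1.53% and Irf4 from 0.864 to 3.28%. Irf1 and Irf4 were the 2 genes whose share was higher after LPS. The groups did not overlap for any of the 8 shares. Each had an exact two-sided permutation p of 0.1, the smallest possible, also after adjustment over the 8. The shares of a library add up to a fixed whole, so a larger Irf1 share lowers the others. The 8 tests are therefore not separate results, and a lower share does not mean a lower level. Shares depend on the length used: with the longest annotated transcript in place of merged exons, Irf1 went from 16.7 to 47.0%, and Irf8 stood above Irf7 in both groups.

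**Figure D3:**
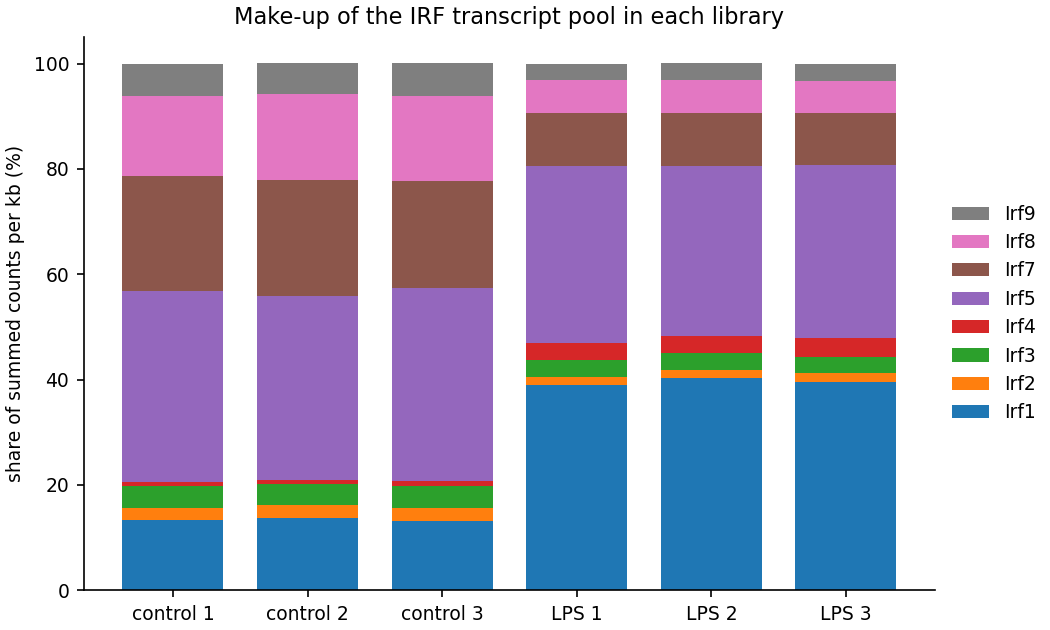
Share of each IRF gene in the level per kb summed over the 8 IRF genes, in percent, for each of the 6 libraries. Irf1 takes 13.2 to 13.7% in control and 39.0 to 40.3% in LPS libraries, and the Irf7 and Irf8 portions are smaller in the LPS libraries.

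Among the genes on the route from TLR4 to IRF3, 8 of 12 rose and 2 fell (with library size alone 6 rose and 4 fell), with a median log2 fold change of 0.47. For this and each list that follows, the shares over all tested genes to set beside the counts are 32.9% risen and 34.9% fallen under TMM, and 15% and 65.9% with library size alone. Cd14, the co-receptor that hands LPS to TLR4, went from 398 ± 7.53 to 3623 ± 45.5 normalized CPM, a log2 fold change of 3.19 (SE 0.03, adjusted p = 4.12e-22). Tank, an adaptor of TBK1, rose by 2.11 and Peli1, a ubiquitin ligase of TLR pathways, by 2.08 on the log2 scale. Tbkbp1, which encodes another TBK1-binding adaptor, fell with -1.09. Genes named outside the rule after their values were seen were Tlr4 itself, which fell with -0.75, the kinase genes Tbk1 and Ikbke, which rose with 0.50 and 0.64, and Traf3, which rose with 1.05.

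The partners of IRF3 at the Ifnb1 enhancer, NF-kappaB and AP-1 subunits with HMGA1 and coactivators, gave 6 rises and 2 falls among 8 genes (4 and 3 with library size alone), with a median of 0.51. Rel, encoding the NF-kappaB subunit c-Rel, went from 48.2 ± 1.61 to 842 ± 23.2 normalized CPM, a log2 fold change of 4.13 (SE 0.04, adjusted p = 1.36e-22). Nfkb1 rose with 2.67, Rela with 1.06 and Hmga1, which encodes an architectural protein of that enhancer, with 0.54. The kB-like match in capitals in the Ifnb1 sequence above is of the kind that these subunits are known to bind.

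Of 12 genes for partners and competitors of IRF proteins, 9 rose and 2 fell (5 and 5 with library size alone), with a median of 0.48. Prdm1, encoding BLIMP1, a repressor that binds a subset of IRF sites including those of Ifnb1, rose from 16.7 ± 0.853 to 270 ± 4.11 normalized CPM, a log2 fold change of 4.01 (SE 0.04, adjusted p = 2.61e-22). Irf2bp1, encoding a corepressor that binds IRF2, fell with -1.47. Spib, the relative of PU.1, rose with 1.16 from 0.991 to 2.23 normalized CPM, and Batf, an AP-1 factor that pairs with IRF4 and IRF8, rose with 0.90. Spi1, which encodes PU.1 and was named after its values were seen, had 0.13 (adjusted p = 0.0045) under TMM and -0.28 with library size alone.

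Among genes of the type I and type II interferon receptors and of JAK-STAT signalling, 7 of 11 rose and 3 fell (5 and 5 with library size alone), with a median of 0.34. Jak2, a kinase of cytokine receptors including that of interferon gamma, went from 56.7 ± 1.13 to 561 ± 7.74 normalized CPM, a log2 fold change of 3.31 (SE 0.04, adjusted p = 3.68e-22). Socs1, an inhibitor of JAK kinases, rose with 3.16, and Ifnar1, a chain of the type I receptor, with 0.85. Stat2, the ISGF3 partner of IRF9, fell from 154 ± 5.79 to 52.5 ± 2.83, with -1.56 (SE 0.04, adjusted p = 4.85e-16). Irf9, with its log2 fold change of -0.38, was thus lower at 1 h together with Stat2.

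Of the 23 interferon-stimulated genes, 9 rose and 12 fell, beside 32.9% and 34.9% of all tested genes, with a median of -0.10. With library size alone 9 rose and 14 fell, beside 15% and 65.9%. Cxcl10 and Ccl5, chemokine genes that NF-kappaB and IRF3 can also switch on, rose from 14.5 ± 0.59 to 470 ± 8.26 and from 4.38 ± 0.812 to 106 ± 3.75 normalized CPM, with log2 fold changes of 5.02 and 4.61. Oasl1 rose with 2.32, and Ifih1, encoding the RNA sensor MDA5, with 1.80. Named after their values were seen, Isg15 rose with 1.52 and Rsad2 with 1.24, while Ifit2 fell from 400 ± 13.5 to 189 ± 8.54 with -1.08. Ifit3, Mx1 and Ifi44, named in the same way, fell with -0.89, -0.87 and -0.78. Of the 23 genes, 6 rose and 1 fell past both criteria, beside 10.5% and 10.4% of tested genes. With library size alone 5 rose and 4 fell past both, beside 7.73% and 18.9%.

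**Figure D4:**
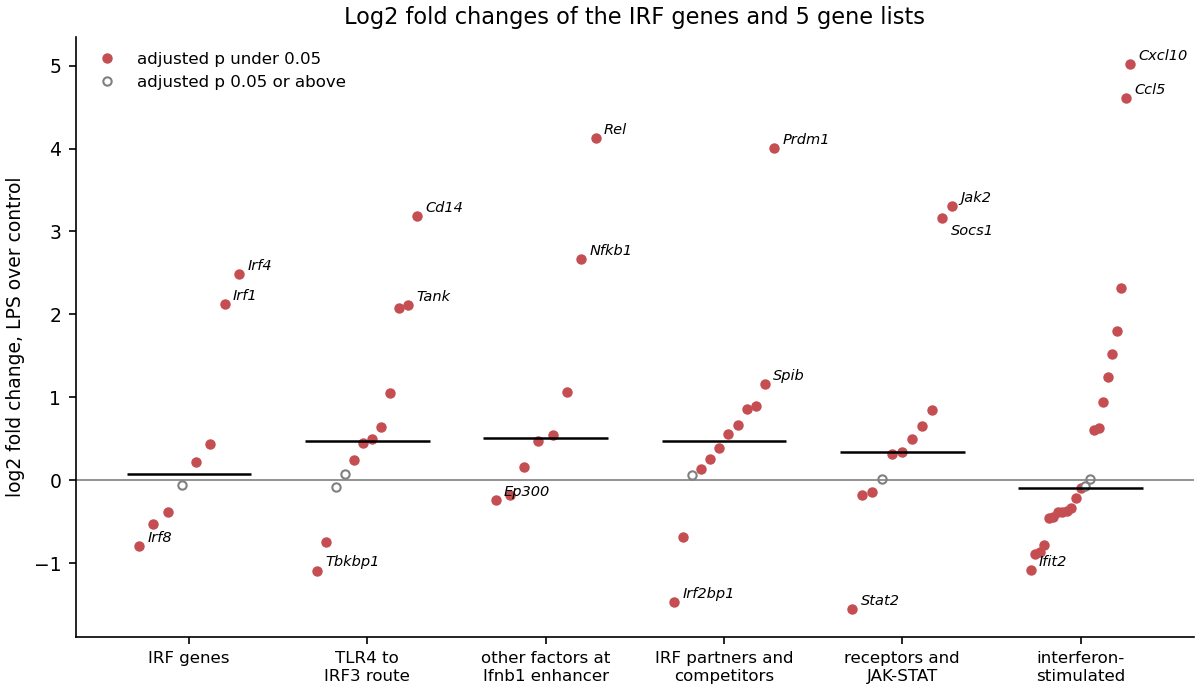
Log2 fold change of each tested gene of the 5 pathway lists and of the 8 IRF genes, each point a gene, with a bar at each median and the outermost genes labelled. Ifnb1, at 9.22, is left off the axis, and the interferon-stimulated genes are spread on both sides of 0, from Cxcl10 at 5.02 to Ifit2 at -1.08.

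Markers of other cells were also read beside the IRF values. Neutrophil markers summed to 33.6 to 35.8 normalized CPM in control and 44.3 to 46.2 in LPS libraries, with 2 of the 6 genes risen under TMM (S100a8 and S100a9), although with library size alone S100a9 had -0.04 and S100a8 was likewise no higher. B cell markers summed to 2.88 to 3.17 and 2.88 to 3.64, and T and NK cell markers to 0.693 to 1.04 and 0.646 to 0.834. Irf4, which B cells also express, was at 59.0 to 62.1 normalized CPM in the LPS libraries. The part of these cells in the IRF values was not tested.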

How the data were processed

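The 6 libraries of BMDM total RNA were grouped and numbered by the labels. Per the submitters' processing notes and the study's methods, the authors used FastQC 0.11.9, HISAT2 2.1.0 (paired-end reads on GRCm38), SAMtools 1.17 and featureCounts 2.0.0. The deposited values are raw counts of reads per gene. The annotation release, strand setting and handling of multi-mapped reads are not given in the sources used here, nor is the LPS dose. Of 55335 identifiers, 55154 matched GENCODE M21, which gave symbols, coordinates and exon lengths.

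From the counts, R 4.3.3 with edgeR 4.0.16 (filterByExpr, TMM factors 0.8642 to 1.153, quasi-likelihood test, Benjamini-Hochberg over 15687 genes) gave the fold changes, whose SEs were derived from the F statistic. Both criteria means an adjusted p under 0.05 with a log2 fold change beyond 1 in size, as in the study. A floor of 3 counts was 0.063 to 0.0919 normalized CPM and covers counting error only. Ratios used a pseudocount of 0.5 and exact permutation over 20 label assignments. The code was tested on simulated data. Figures and joins used Python 3.11.15.

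The members and gene lists were chosen with earlier results of these data known. Genes named were all members, the nearest 2 genes to each member past the test, and from each list the 4 of largest change with a mean of at least 50 counts. Same-numbered libraries share a replicate number in the labels, so the pairing comes from that numbering. The correlations of their deviations were -0.0139, 0.0822 and 0.0387, and those of differently numbered pairs ran from -0.0817 to 0.0446. The main model has no replicate term, and the study's methods describe pairwise comparisons without giving a model. Alternatives were other scalings and filters, DESeq2 1.42.0, limma 3.58.1 (voom), the replicate block and leaving out the top 10 genes or each library. Further ones were a stricter fold with a looser p, a pseudocount of 5 and transcript length. Values of some listed genes are not reported here.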

Additional observations from a re-analysis of the deposited data

How the results depend on the processing

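Of 664 values computed under alternatives, 633 kept their direction and side of the threshold or stayed within the limits set for counts and shares. With library size alone, the log2 fold changes were -0.47 for Irf2, -0.19 for Irf3, which turned direction, and 0.03 for Irf5, and members called at the adjusted p were 3 up and 5 down, with 1 down past both criteria. With upper quartile scaling, Irf2 had -0.20 and Irf3 0.07. Past both criteria, library size alone gave 2 falls on the TLR4 to IRF3 route and 1 rise and 2 falls among IRF partners. Among interferon-stimulated genes it gave 4 falls, and upper quartile scaling gave 3. Over all tested genes, 7.73% rose and 18.9% fell past both criteria with library size alone. The matching shares under upper quartile scaling were not worked out. A log2 fold change above 2 at an adjusted p under 0.1 is stricter in fold and looser in p than both criteria. It gave 0 falls on the TLR4 route, among partners, receptor genes and interferon-stimulated genes. The rises under it were 1 among partners and 3 among interferon-stimulated genes. With no filter beyond 1 count, 4 other interferon genes rose. With the longest transcript as length, share differences in percentage points were 30.3 for Irf1, -1.12 for Irf2, -1.16 for Irf3, 1.56 for Irf4, -9.20 for Irf7 and -13.6 for Irf8. The cause of these shifts was not tested beyond what each setting changes by its construction. The replicate block changed no call of a member, with Ifnb1 at 9.22, Irf3 at 0.22 and Irf2 at -0.06 in the paired model. At the adjusted p it gave 9 rises on the TLR4 route in place of 8, and 13 falls among interferon-stimulated genes in place of 12. For ratios and shares, the paired sign-flip test, an exact test, cannot go below a p of 0.25. Depth limits Ifnb1 in control cells and the other interferon genes, which lie near the floor of 3 counts.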

Other observations

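The genes lying next to the members along the chromosome were read from the same fit. Hacd4, 83096 bp to the left of Ifnb1, had a log2 fold change of -0.08, and Ifna15, 34898 bp to the right, had 0 counts in every library. Next to Irf4, Dusp22 had -0.15 and Exoc2 0.18. Next to Irf8, Cox4i1 had 0.22. Tspan33, 152350 bp from Irf5, had 2.77, from 21, 14 and 14 counts without LPS to 83, 92 and 67 with it. Rassf7, 44047 bp from Irf7, had -2.59, from 139, 149 and 148 counts without LPS to 22, 14 and 16 with it.

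By Euclidean distance of centred log2 CPM over the 6 libraries, among 12146 tested protein-coding genes, the nearest genes were Prr5l (0.077) and Srxn1 (0.08) for Irf1, Uck2 (0.113) and Spty2d1 (0.12) for Irf4, and Gga3 (0.034) and Taok2 (0.044) for Irf8. They were Mto1 (0.053) and Nmral1 (0.077) for Irf7, Klc4 (0.016) and Il6st (0.02) for Irf9, Ankrd13a (0.015) and Lgmn (0.017) for Irf3, and Hdlbp (0.039) and Psma6 (0.04) for Irf5. For Ifnb1 the nearest, Gem (0.766) and Dusp14 (0.836), were farther away, with log2 fold changes of 8.57 and 10.07. The 6 libraries share one contrast, so this likeness is a description of size and spread.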
